A study of Mus musculus with 6 samples.

Results

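The genes described here are those of the coactivators YAP (Yap1) and TAZ (Wwtr1), of their DNA-binding partner TEAD1 (Tead1), and of 7 genes of the same pathway: Cyr61 (also named Ccn1), Ctgf (also named Ccn2), Ankrd1, Amotl2, Lats2, Ajuba and Crim1. They were chosen by name, and all 10 were found among the 20482 genes of the deposited count table. RNA was sequenced from 6 subcutaneous tumours grown from H22, a mouse hepatocellular carcinoma line, implanted in male wild-type C57BL/6 mice at 6 weeks of age. The 3 sensitive tumours (NR1 to NR3) came from control mice. The 3 resistant tumours (LR1 to LR3) were taken from mice injected intraperitoneally with lenvatinib at 100 mg/kg per day, 2 days a week, over 2 cycles. Lenvatinib is a drug that blocks VEGF, FGF and other receptor tyrosine kinases. The labels conflict on the drug, because the treatment field reads as untreated for every tumour and the protocol names lenvatinib together with its solvent for the control mice. Lenvatinib exposure and acquired resistance cannot be told apart in this design, and tumour cells were not separated from host tissue.

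YAP and TAZ are the output of the Hippo pathway. When the kinase cascade is active, LATS1 and LATS2 phosphorylate both proteins, which are then held in the cytoplasm or degraded. When it is inactive they enter the nucleus, bind TEAD transcription factors and raise transcription of genes for matrix proteins, for cytoskeletal regulators and for inhibitors of the pathway itself. Their activity is controlled mainly through protein phosphorylation and localization, which RNA levels do not show. In liver, loss of Hippo kinases or excess YAP leads to organ overgrowth and tumours in mice.

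TEAD proteins bind the hexamer CATTCC, which reads GGAATG on the opposite strand, so the RefSeq promoter windows of the genes (GRCm38.p6, 250 bases before to 50 after the transcription start) were searched for it on both strands. A window was found for 8 of the 10 genes, Tead1 and Ctgf being without an entry, and all 8 held at least 1 hexamer. The hexamer was present in 14.5% of the 10902 tested genes with a window and in 14.7% of all 32851 windows. It was present in 6 of 24 other Hippo pathway genes with a window (25.0%), in 3 of 5 other TEAD and VGLL genes, and in 2 of 10 other YAP and TAZ targets (20.0%). A match of 6 letters is a description of the sequence and not evidence of binding. No AP-1 motif (TGACTCA or TGAGTCA) and no CArG box was found in the windows of the 8 genes, against 4.99% and 1.60% of tested genes. The 30 bases around each hexamer are given because they place the TEAD motif in the genes whose RNA is described, with the hexamer in capitals and the sequence 5′ to 3′ on the strand of the gene.
Yap1, chr9:8004720-8004749, minus strand: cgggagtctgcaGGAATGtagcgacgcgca
Wwtr1, chr3:57576029-57576058, minus strand: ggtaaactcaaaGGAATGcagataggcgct
Cyr61, chr3:145650071-145650100, minus strand: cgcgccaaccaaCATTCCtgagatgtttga
Ankrd1 first site, chr19:36120037-36120066, minus strand: gtcactgccaaaGGAATGaccctctcacat
Ankrd1 second site, chr19:36119950-36119979, minus strand: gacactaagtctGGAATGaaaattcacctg
Amotl2, chr9:102717727-102717756, plus strand: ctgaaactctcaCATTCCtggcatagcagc
Lats2, chr14:57746102-57746131, minus strand: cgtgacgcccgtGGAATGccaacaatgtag
Ajuba first site, chr14:54577830-54577859, minus strand: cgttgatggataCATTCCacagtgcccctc
Ajuba second site, chr14:54577808-54577837, minus strand: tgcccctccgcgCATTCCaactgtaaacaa
Crim1, chr17:78200157-78200186, plus strand: agggcgggggggGGAATGaggtaggatggg

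The hexamers lay before the RefSeq transcription start in all of these genes except Lats2, where the match began 4 bases after the first transcribed base of 1 of its 2 annotated starts. Ankrd1 and Ajuba each held 2 hexamers. The pair in Ajuba, starting at -186 and -164 bases from the start, lay closer together than the pair in Ankrd1, at -210 and -123. The RefSeq start of Ajuba lies outside the gene as GENCODE release M21 draws it, so its distances hold for the RefSeq start only. The same limit holds for Ankrd1, Amotl2 and Lats2, whose GENCODE genes begin further upstream, at 36120099, 102716672 and 57758388. Their hexamers thus lie inside the gene as GENCODE draws it, as does the whole Ankrd1 stretch given below. The 250 bases before the RefSeq start are given whole for Cyr61 and Ankrd1, the pair with the highest RNA levels per gene length (FPKM) among the 10 genes.
Cyr61, chr3:145649986-145650235, minus strand: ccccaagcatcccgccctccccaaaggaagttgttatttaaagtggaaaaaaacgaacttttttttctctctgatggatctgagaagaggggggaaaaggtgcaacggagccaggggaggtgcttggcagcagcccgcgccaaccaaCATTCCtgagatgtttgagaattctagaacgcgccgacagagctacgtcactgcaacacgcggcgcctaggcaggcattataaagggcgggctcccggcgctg
Ankrd1, chr19:36119845-36120094, minus strand: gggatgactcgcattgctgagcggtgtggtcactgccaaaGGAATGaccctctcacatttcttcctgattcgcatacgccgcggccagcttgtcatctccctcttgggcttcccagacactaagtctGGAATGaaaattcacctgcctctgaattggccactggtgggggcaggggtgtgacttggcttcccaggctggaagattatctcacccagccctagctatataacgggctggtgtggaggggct

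**Figure D1:**
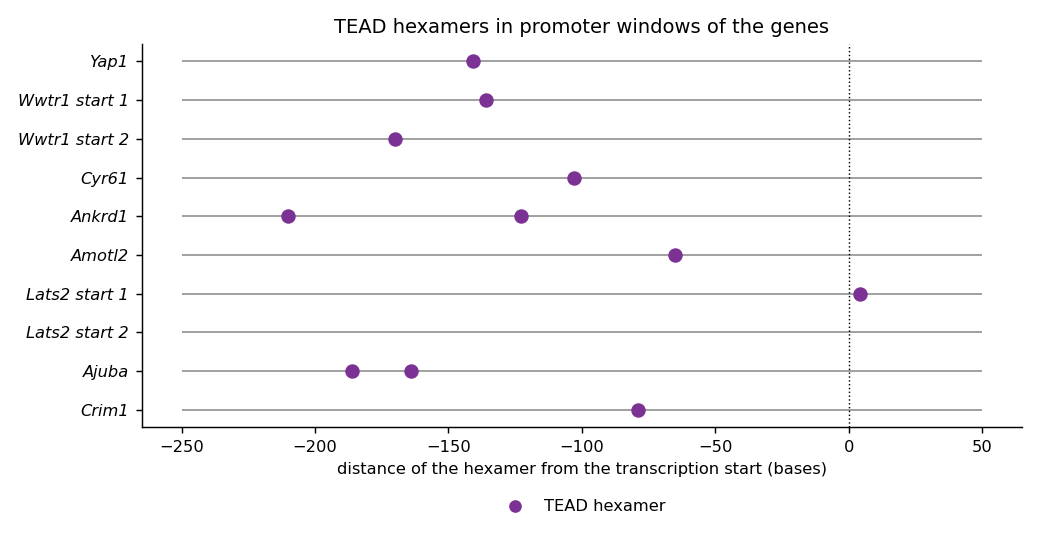
Positions of the TEAD hexamer (circles) in the RefSeq promoter windows of 8 genes, as distance in bases from the first transcribed base in RefSeq (dotted line at 0), with 1 line per annotated start. Both Wwtr1 starts show the same hexamer, and the second Lats2 start has none.

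The tumours were read at similar depth, with 15995403 to 17545098 counts each, and no gene of the group had fewer than 144 counts in any tumour. Levels are given below as CPM, counts scaled to library size after TMM correction, a correction for library composition. Sensitive tumour 2 stood apart from the other 5, with 2490 CPM summed over 7 genes of B and plasma cells against 1.25 to 16.7 CPM elsewhere, and log2 fold changes that move by over 1.5 times or turn sign without it are given both ways. Of the hepatocyte and hepatoma genes, Alb was read at 112 CPM or more and Afp at 11.5 CPM or more in every tumour, while the epithelial marker Epcam was at 0 in 4 of 6. In these bulk samples, fewer cells of a type and less RNA per cell cannot be told apart.

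For most genes of the group the values of resistant and sensitive tumours overlapped, which does not show that their levels were equal. The clearest difference was in Ctgf, a secreted matrix-associated protein, whose mean was 1.65 times as high in resistant tumours. Ajuba, a LIM-domain adaptor that inhibits LATS kinases, had a mean 1.34 times as high. For both, all 3 resistant tumours lay above all 3 sensitive tumours. Tead1 was high in sensitive tumour 2 alone. None of the 10 genes passed edgeR's quasi-likelihood test at a Benjamini-Hochberg adjusted p under 0.05, which no gene of 14392 passed (0.00%). DESeq2 called 117 genes (0.813%) and none of these 10, and limma-voom called no gene at all.

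At an unadjusted p under 0.05, Ctgf and Ajuba were below the limit in the quasi-likelihood test, that is 2 of 10 genes where 1404 of all tested genes (9.76%) were. Both were higher in resistant tumours, as were 4.02% of tested genes at that limit, and none of the 10 was lower, where 5.73% were. DESeq2 put Tead1 below the limit as well, 3 of 10 genes where 12.1% of tested genes were. The groups did not overlap for the same pair, 2 of 10 genes against 8.41% of tested genes that were higher without overlap and 7.54% that were lower without overlap. Of the 10 log2 fold changes (resistant minus sensitive), 6 were above 0, where 47.3% of all tested genes were. Their median was 0.17, beside -0.02 over all tested genes, and it was -0.04 without sensitive tumour 2 and 0.03 without resistant tumour 2. The 10 genes thus had no common direction that was independent of single tumours.

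**Figure D2:**
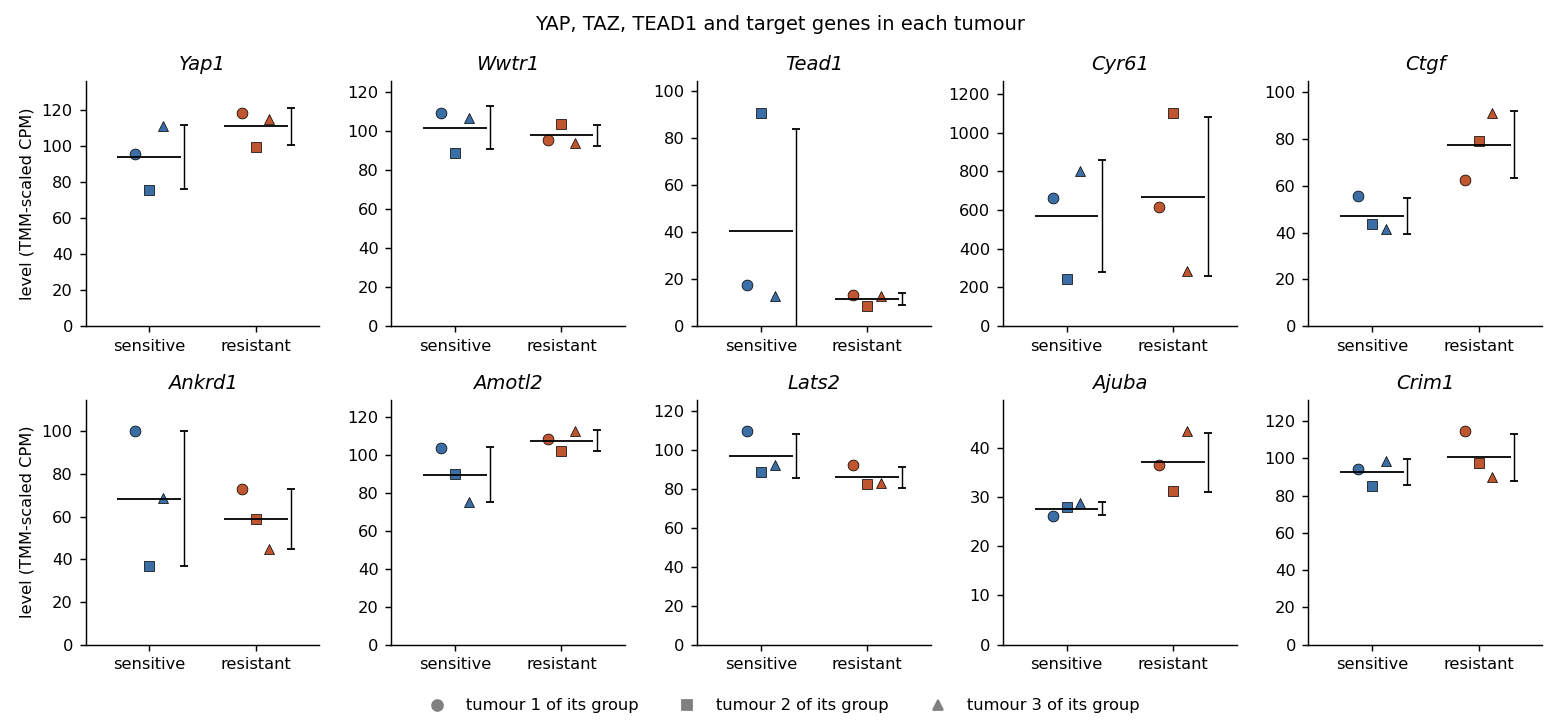
Level of each gene (TMM-scaled CPM, linear axis from 0) in the 3 sensitive and 3 resistant tumours, with the group mean (line) and SD (bar at the right, cut off at 0 for sensitive Tead1). Only Ctgf and Ajuba show 3 resistant tumours above 3 sensitive ones, and Tead1 is at 90.7 CPM in sensitive tumour 2 and at 17.4 CPM or less in the other 5.

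Yap1 (ENSMUSG00000053110, GRCm38 chromosome 9, 7931999 to 8004596, minus strand) encodes YAP. It was read at 95.5, 75.6 and 111 CPM in sensitive tumours 1 to 3 and at 118, 99.1 and 115 CPM in resistant tumours 1 to 3. Sensitive tumour 2 was the lowest and the groups overlapped, since sensitive tumour 3 lay above resistant tumour 2. The means were 94.0 ± 17.7 and 110.8 ± 10.2 CPM (SD, n = 3 each), with a log2 fold change of 0.24 ± 0.17 (SE) and a 95% interval from -0.17 to 0.64 (adjusted p = 0.608, edgeR). Without sensitive tumour 2 the log2 fold change was 0.10.

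Wwtr1 (ENSMUSG00000027803, chromosome 3, 57455649 to 57575910, minus strand) encodes TAZ, the paralog of YAP. Its levels were 109, 89.1 and 107 CPM in the sensitive and 95.6, 104 and 94.0 CPM in the resistant tumours. These 6 values spanned a factor of 1.23, the narrowest range of the 10 genes. The log2 fold change was -0.06 ± 0.13 with a 95% interval from -0.36 to 0.25 (adjusted p = 0.878, edgeR), which leaves room for a difference of either sign. It was 0.03 on the FPKM scale, 0.02 without sensitive tumour 1 and -0.15 without sensitive tumour 2.

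Levels of different genes were compared as FPKM, which divides by gene length. On this scale TAZ RNA exceeded YAP RNA in every tumour: the ratio of Wwtr1 to Yap1 FPKM was 1.55, 1.60 and 1.31 in sensitive and 1.10, 1.42 and 1.11 in resistant tumours. By CPM, without division by length, Yap1 was the higher in sensitive tumour 3 and in resistant tumours 1 and 3. The order thus rests on the gene lengths behind the FPKM. The lower ratios were in resistant tumours 1 and 3, while resistant tumour 2 lay above sensitive tumour 3. The mean log2 ratio was 0.57 ± 0.16 in sensitive and 0.26 ± 0.21 in resistant tumours (SD, n = 3 each), a difference of -0.30. An exact permutation test (two-sided) gave p = 0.2, where 3 against 3 tumours can reach 0.1 at best. The sum of both coactivators was 17.3 to 23.1 FPKM in sensitive and 21.7 to 22.9 FPKM in resistant tumours.

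Tead1 (ENSMUSG00000055320, chromosome 7, 112679318 to 112906807, plus strand) encodes a TEAD transcription factor. Sensitive tumours 1 to 3 held 17.4, 90.7 and 12.9 CPM, and resistant tumours 1 to 3 held 13.3, 8.60 and 12.96 CPM. Sensitive tumour 2 stood far above the rest, and sensitive tumour 3 lay among the resistant tumours. Over all tumours the log2 fold change was -1.79 ± 0.75 (adjusted p = 0.51, edgeR) and -0.38 without sensitive tumour 2. That tumour also had the highest summed CPM of B and plasma cell genes, of T cell genes (317 against 7.10 to 33.8 CPM), of endothelial genes (522 against 145 to 364 CPM) and of smooth muscle and pericyte genes (383 against 115 to 352 CPM). The part of these cells in the Tead1 level was not tested.

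The other TEAD genes, which encode paralogs that bind the same hexamer, did not share this pattern. Tead2, Tead3 and Tead4 were each lowest in sensitive tumour 2, at 28.9, 55.5 and 33.1 CPM. Per length, Tead3 and Tead4 were the most abundant: in the resistant tumours Tead3 stood at 12.7, 9.98 and 14.0 FPKM and Tead4 at 11.2, 8.75 and 10.4 FPKM. Tead1 made up 17.7% of the TEAD family FPKM in sensitive tumour 2 and 1.41% to 2.76% in the other 5 tumours. The log2 fold changes were 0.14 ± 0.23 for Tead2, 0.23 ± 0.25 for Tead3 and 0.27 ± 0.17 for Tead4. Without sensitive tumour 2 they were -0.07, 0.02 and 0.16. Vgll3 and Vgll4, cofactors that compete for TEADs, had log2 fold changes of 0.78 ± 0.49 and 0.11 ± 0.19. None of these 5 tested genes passed (adjusted p of 0.572 or more, edgeR).

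**Figure D3:**
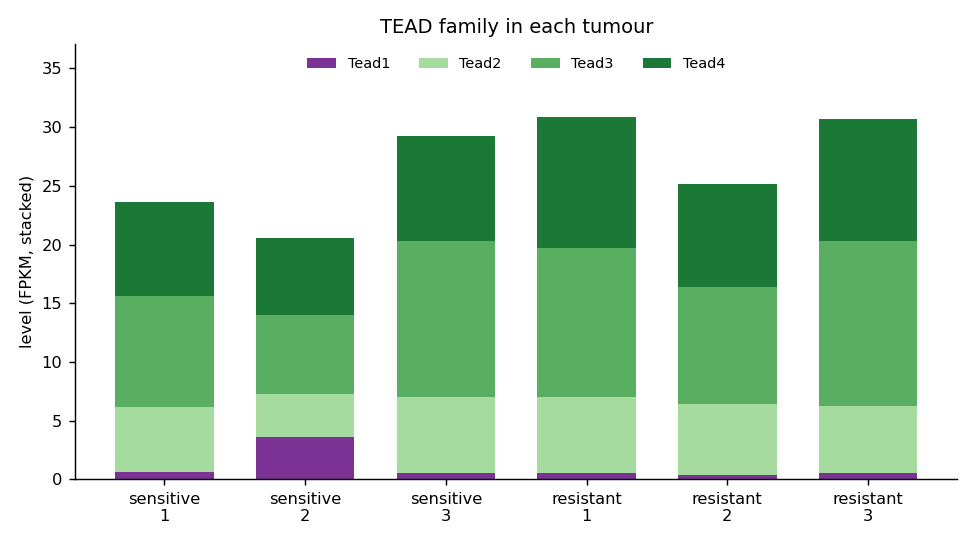
FPKM of Tead1 to Tead4 stacked for each tumour (linear axis from 0). Tead1 is 3.64 FPKM in sensitive tumour 2 and 0.654 FPKM or less in the others, and Tead3 and Tead4 hold most of the sum in every tumour.

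Ctgf (ENSMUSG00000019997, chromosome 10, 24595442 to 24598683, plus strand) encodes connective tissue growth factor, a secreted protein that acts in matrix deposition and is among the most used readouts of YAP and TAZ. It was read at 55.7, 43.9 and 41.4 CPM in sensitive tumours 1 to 3 and at 62.6, 79.3 and 91.2 CPM in resistant tumours 1 to 3. Every resistant value lay above every sensitive value. The means were 47.0 ± 7.66 and 77.7 ± 14.4 CPM, with a log2 fold change of 0.73 ± 0.19 and a 95% interval from 0.26 to 1.19. Ctgf ranked 143rd of 14392 genes by p (0.00794 before adjustment), and its adjusted p was 0.51 by edgeR's quasi-likelihood test, 0.104 by DESeq2 and 0.637 by limma-voom. Leaving out single tumours gave log2 fold changes from 0.60 to 0.89, and the unadjusted p stayed under 0.05 each time.

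Summed fibroblast genes were 4287, 3476 and 1867 CPM in sensitive and 2249, 6892 and 5472 CPM in resistant tumours. Resistant tumours 2 and 3 had the highest fibroblast sums and the highest Ctgf, while resistant tumour 1 had a lower fibroblast sum than sensitive tumours 1 and 2. By mean, 6 of the 10 fibroblast genes were higher and 4 lower in resistant tumours. The part of fibroblasts in the Ctgf level was not tested. An antisense gene, Gm15270, shares 665 of the 2861 exonic bases of Ctgf; it was counted 0 times in each sensitive tumour and 3, 6 and 7 times in the resistant ones. The sources used here do not say whether strand was used in counting, so that reads of the overlap cannot be assigned to either gene. Ctgf itself had 725 to 899 counts in sensitive and 1053 to 1534 counts in resistant tumours.

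Cyr61 (ENSMUSG00000028195, chromosome 3, 145646976 to 145649981, minus strand) encodes a second secreted CCN protein and is induced both by YAP and TAZ and by serum as an immediate early gene. Its levels were 662, 245 and 802 CPM in sensitive and 617, 1101 and 284 CPM in resistant tumours. The spread within a group was a factor of 3.27 among sensitive and 3.88 among resistant tumours, and the groups overlapped throughout. The log2 fold change was 0.23 ± 0.58, with a 95% interval from -1.17 to 1.62 (adjusted p = 0.892, edgeR), and it was -0.13 without sensitive tumour 2 and -0.32 without resistant tumour 2. No direction can be given for this gene.

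Ctgf and Cyr61, the same family and both YAP and TAZ targets, did not order the tumours alike. Resistant tumour 3, highest in Ctgf, was the second lowest in Cyr61, and sensitive tumour 3, lowest in Ctgf, was the second highest in Cyr61. The summed CPM of 10 immediate early genes was 648 (sensitive 1), 607 (sensitive 2), 776 (sensitive 3), 624 (resistant 1), 939 (resistant 2) and 386 (resistant 3). The 4 tumours highest in this sum were the 4 highest in Cyr61, in the same order. The lowest sum was in resistant tumour 3, and the lowest Cyr61 in sensitive tumour 2. Fos was highest in resistant tumour 2 (203 CPM) and sensitive tumour 3 (184 CPM). Fosb, Jun, Egr2, Ier2 and Atf3 were highest in resistant tumour 2 as well. Junb, Egr3 and Nr4a1 were highest in sensitive tumour 2, the lowest in Cyr61, and Egr1 was highest in sensitive tumour 1. The part of immediate early induction in the Cyr61 level was not tested.

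Ankrd1 (ENSMUSG00000024803, chromosome 19, 36111961 to 36120099, minus strand) encodes an ankyrin repeat protein of striated muscle nuclei and sarcomeres that is also a standard YAP target in other cells. It was read at 99.9, 36.7 and 68.5 CPM in sensitive and at 72.9, 58.9 and 44.6 CPM in resistant tumours. Sensitive tumours 1 and 2 were the highest and the lowest of all 6. Its log2 fold change was -0.22 ± 0.37 (95% interval from -1.10 to 0.67, adjusted p = 0.835, edgeR), with the opposite sign, 0.19, when sensitive tumour 1 was left out. It became -0.52 when sensitive tumour 2 was left out, and the same step gave -0.40 for resistant tumour 1 and -0.05 for resistant tumour 3. Skeletal muscle genes summed to 1354, 5.73 and 3.08 CPM in sensitive and 266, 86.7 and 4.40 CPM in resistant tumours, so that the pair richest in muscle RNA was also the pair highest in Ankrd1. Sensitive tumour 3, lowest in this sum, came next in Ankrd1. The part of muscle in the Ankrd1 level was not tested.

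Amotl2 (ENSMUSG00000032531, chromosome 9, 102716672 to 102733418, plus strand) encodes an angiomotin family protein that binds YAP and holds it outside the nucleus, and it is itself a target. It stood at 104, 90.0 and 74.8 CPM in sensitive and 108, 102 and 112 CPM in resistant tumours. Only sensitive tumour 1 and resistant tumour 2 were out of order. Amotl2 had a log2 fold change of 0.26 ± 0.15 (95% interval from -0.09 to 0.62, adjusted p = 0.541, edgeR).

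Lats2 (ENSMUSG00000021959, chromosome 14, 57689662 to 57758388, minus strand) encodes a kinase that phosphorylates YAP and TAZ and whose gene they induce as feedback. It was read at 109, 88.4 and 92.2 CPM in sensitive and at 92.0, 82.5 and 83.1 CPM in resistant tumours. The groups overlapped at sensitive tumour 2, and the log2 fold change was -0.17 ± 0.13 (95% interval from -0.48 to 0.14, adjusted p = 0.631, edgeR). The sign of Lats2 was thus opposite to that of Amotl2, the other feedback inhibitor of the group, and neither passed. A gene on the same strand, Gm49361, shares 2955 of the 6971 exonic bases of Lats2 and is absent from the count table. How reads of that overlap were counted is not stated in the sources used here.

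Ajuba (ENSMUSG00000022178, chromosome 14, 54567472 to 54577558, minus strand) is the adaptor named above. Its levels were 26.2, 28.0 and 28.7 CPM in sensitive and 36.4, 31.3 and 43.3 CPM in resistant tumours. The sensitive tumours lay within a factor of 1.10 of each other and below every resistant tumour. The means were 27.6 ± 1.32 and 37.0 ± 6.02 CPM. The difference was 0.42 ± 0.18 on the log2 scale, with an unadjusted p of 0.0496 and an adjusted p of 0.51 (edgeR). Leaving out single tumours gave 0.30 to 0.54, and the unadjusted p stayed under 0.05 only when resistant tumour 2 was the one left out. Means of other lists of marker genes differed in the same contrast as Ctgf and Ajuba, in part with overlap between the groups. Of 6 epithelial genes, the keratins Krt8, Krt18 and Krt19 had higher means in resistant tumours, and Epcam, Cdh1 and Cldn4 did not. Epcam and Cldn4 were too low to be tested, and none of the 4 tested passed (adjusted p of 0.51 or more, edgeR). Their summed levels were 446 to 634 CPM in sensitive and 663 to 1101 CPM in resistant tumours, with the lowest resistant sum in resistant tumour 3, the highest in both Ctgf and Ajuba. Hepatocyte and hepatoma genes, 6 of 8 of them lower by mean, summed to 214 to 245 CPM in sensitive and 162 to 182 CPM in resistant tumours. All 13 mitochondrially encoded genes had lower means in resistant tumours, with summed levels of 80222 to 178010 CPM in sensitive and 53286 to 80573 CPM in resistant tumours. Lower means were also found for 9 of 9 endothelial, 7 of 7 smooth muscle and pericyte, and 5 of 5 fat cell genes, but these sums overlapped. Endothelial genes summed to 213 to 522 CPM in sensitive and 145 to 251 CPM in resistant tumours. Smooth muscle and pericyte genes summed to 115 to 383 and 141 to 208 CPM, and fat cell genes to 381 to 1307 and 17.0 to 540 CPM. All 7 T cell, 7 B and plasma cell and 10 skeletal muscle genes were lower by mean as well. Their highest sums were in sensitive tumours 2, 2 and 1. DESeq2 called Krt8 (adjusted p = 0.013), Alb (0.00203), mt-Nd2 (0.0184) and mt-Atp8 (3.35e-12). Among the T cell genes DESeq2 called Cd3e (0.045), Cd2 (0.0238) and Trac (0.0235), all highest in sensitive tumour 2. The part of these lists in the Ctgf and Ajuba levels was not tested.

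Crim1 (ENSMUSG00000024074, chromosome 17, 78200248 to 78376592, plus strand) encodes a membrane protein that binds growth factors of the BMP family. It stood at 94.4, 85.1 and 98.4 CPM in sensitive and 114, 97.7 and 89.9 CPM in resistant tumours, and the groups overlapped. Its log2 fold change was 0.12 ± 0.14 (95% interval from -0.21 to 0.45, adjusted p = 0.741, edgeR), and 0.06 without sensitive tumour 2 and 0.02 without resistant tumour 1.

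**Figure D4:**
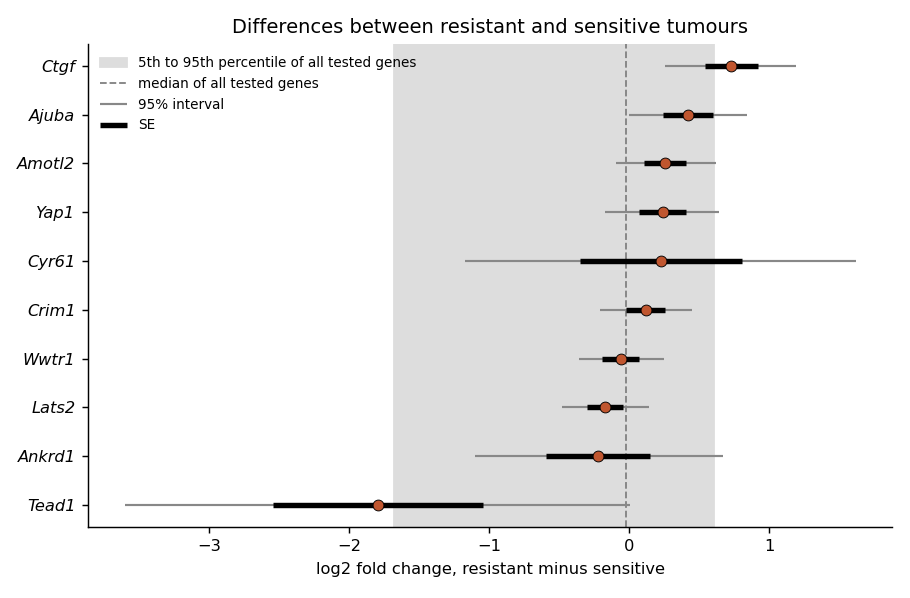
Log2 fold change (resistant minus sensitive) of each gene with its SE (thick bar) and 95% interval (thin bar), over the 5th to 95th percentile of all 14392 tested genes (grey, -1.68 to 0.61). Ctgf, at 0.73, lies above that range and Tead1, at -1.79, below it; the interval of Cyr61 runs from -1.17 to 1.62.

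By level per gene length the order of the genes was similar in all tumours at its ends. Cyr61 was the highest in each of the 6 (mean 305 FPKM, 92nd of the 14392 tested genes) and Ankrd1 the second highest (mean 35.7 FPKM). Tead1 was the lowest in each (mean 1.05 FPKM). Crim1, with a mean of 16.1 FPKM, came next in sensitive tumours 1 to 3 and resistant tumour 1. Ctgf took that place in resistant tumours 2 and 3, at 16.8 and 20.2 FPKM, and lay below Crim1 and Wwtr1 in every sensitive tumour, at 10.8, 9.03 and 8.77 FPKM. The means of Ajuba, Yap1, Lats2 and Amotl2 lay close together, between 7.73 and 9.26 FPKM, and these neighbours changed places between tumours.

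Of 28 other Hippo pathway genes, all were tested and none passed edgeR's quasi-likelihood test (adjusted p of 0.51 or more). Their log2 fold changes were above 0 in 13 and below 0 in 15, with a median of -0.02, the same as over all tested genes (from -0.07 to 0.02 with single tumours left out). At an unadjusted p under 0.05 there were 2 higher genes, Rassf1 and Mob1a, and 2 lower ones, Mob1b and Taok3, that is 4 of 28 where 9.76% of tested genes were. The upstream kinases showed no clear difference, with Stk3, Stk4 and Lats1, which encode MST2, MST1 and LATS1, at -0.26 ± 0.18, -0.24 ± 0.18 and 0.00 ± 0.12. Stk4 was highest in sensitive tumour 2, at 221 CPM against 131 to 172 CPM elsewhere. The log2 fold changes of these kinases and of Vgll4 are given over all 6 tumours only.

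Mob1a and Mob1b encode near-identical coactivators of the LATS kinases, and their levels lay in opposite directions. Mob1a (ENSMUSG00000043131) was read at 104, 126 and 128 CPM in sensitive and 328, 110 and 310 CPM in resistant tumours. Resistant tumours 1 and 3 stood well above the rest, while resistant tumour 2 lay among the sensitive tumours. The log2 fold change was 1.07 ± 0.39 (adjusted p = 0.51, edgeR) and ranged from 0.83 to 1.43 when single tumours were left out. Mob1b (ENSMUSG00000006262) was read at 76.4, 86.8 and 88.9 CPM in sensitive and 62.1, 68.9 and 65.8 CPM in resistant tumours, all resistant values being lower, with a log2 fold change of -0.36 ± 0.12. The sources used here do not say how reads shared by such paralogs were counted, so both values are uncertain.

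Rassf1, which encodes a scaffold of the MST kinases, was read at 57.0, 54.5 and 64.7 CPM in sensitive and 80.7, 81.5 and 80.2 CPM in resistant tumours. The resistant tumours agreed within a factor of 1.02 and all lay above the sensitive ones, 0.46 ± 0.12 apart on the log2 scale (adjusted p = 0.51, edgeR). An antisense gene, Gm9917, covers 2496 of its 5845 exonic bases and had 13 to 36 counts per tumour. Taok3, a kinase that can activate MST kinases, had a log2 fold change of -0.45 ± 0.18.

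Among 16 other YAP and TAZ targets, 15 were tested, 8 with a log2 fold change above 0 and 7 below, with a median of 0.01 (from -0.08 without sensitive tumour 2 to 0.17 without sensitive tumour 3), and none passed (adjusted p of 0.512 or more, edgeR). None had an unadjusted p under 0.05 (edgeR), where 9.76% of all tested genes did. None was higher without overlap, where 8.41% of all tested genes were. The abundant targets Myof and Axl, a membrane repair protein and a receptor tyrosine kinase, stood at 389 ± 102 against 416 ± 4.26 CPM and 424 ± 44.9 against 421 ± 27.6 CPM. The smallest p values were those of Ptpn14, Rbms3, Fjx1 and Igfbp3. Ptpn14, a phosphatase that binds YAP, was read at 17.9, 24.2 and 4.11 CPM in sensitive and 1.60, 5.79 and 6.30 CPM in resistant tumours (log2 fold change -1.75 ± 0.75). Rbms3, an RNA-binding protein gene, had a log2 fold change of -1.40 ± 0.69. Like Tead1, both were highest in sensitive tumour 2, and without it they stood at -1.26 and -0.43. Fjx1 was lower in every resistant tumour, at 0.297 to 1.01 CPM against 1.03 to 1.67 CPM. It had only 27, 18 and 18 counts in sensitive and 7, 17 and 5 in resistant tumours, so this order is uncertain. Igfbp3, an insulin-like growth factor binding protein, had a log2 fold change of 0.33 ± 0.21, and 0.18 without sensitive tumour 2.

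The other CCN genes read here lay in the direction of Ctgf with wide errors. Nov (Ccn3), Wisp1 (Ccn4) and Wisp2 (Ccn5) had log2 fold changes of 1.01 ± 0.74, 0.44 ± 0.41 and 0.88 ± 0.62, and none passed (adjusted p of 0.603 or more, edgeR). All 3 were highest in resistant tumour 3, at 14.9, 15.8 and 11.6 CPM, and without that tumour their log2 fold changes were -0.08, 0.15 and 0.40.

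For the coactivators and the 2 CCN genes of the group, the genes with the most similar pattern were found by Pearson's r of log2 CPM over the 6 tumours, among 9928 genes whose mean log2 CPM reached 3. For Yap1 they were Aph1a, Fbl and Ndufs1, each with r = 0.998, and 1046 genes had r above 0.9. For Wwtr1 they were Ift81, Tmem209 and Peak1 (r = 0.981, 0.979 and 0.972), and 49 genes exceeded 0.9. For Cyr61 they were Fzd7, Twf1 and the inducible heat shock gene Hspa1b (r = 0.988, 0.986 and 0.985); Hspa1b was read at 179, 56.3 and 200 CPM in sensitive and 150, 330 and 85.1 CPM in resistant tumours. For Ctgf they were Them4, Atp5j and Thbs2 (r = 0.979, 0.979 and 0.973); Thbs2, a matrix thrombospondin, was read at 64.9, 36.4 and 30.2 CPM in sensitive and 55.0, 103 and 116 CPM in resistant tumours. Hspa1b has a near-identical copy in the genome, so its counts are uncertain. These are the highest of 9928 coefficients per gene over 6 shared libraries, and no p is given for them.

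**Figure D5:**
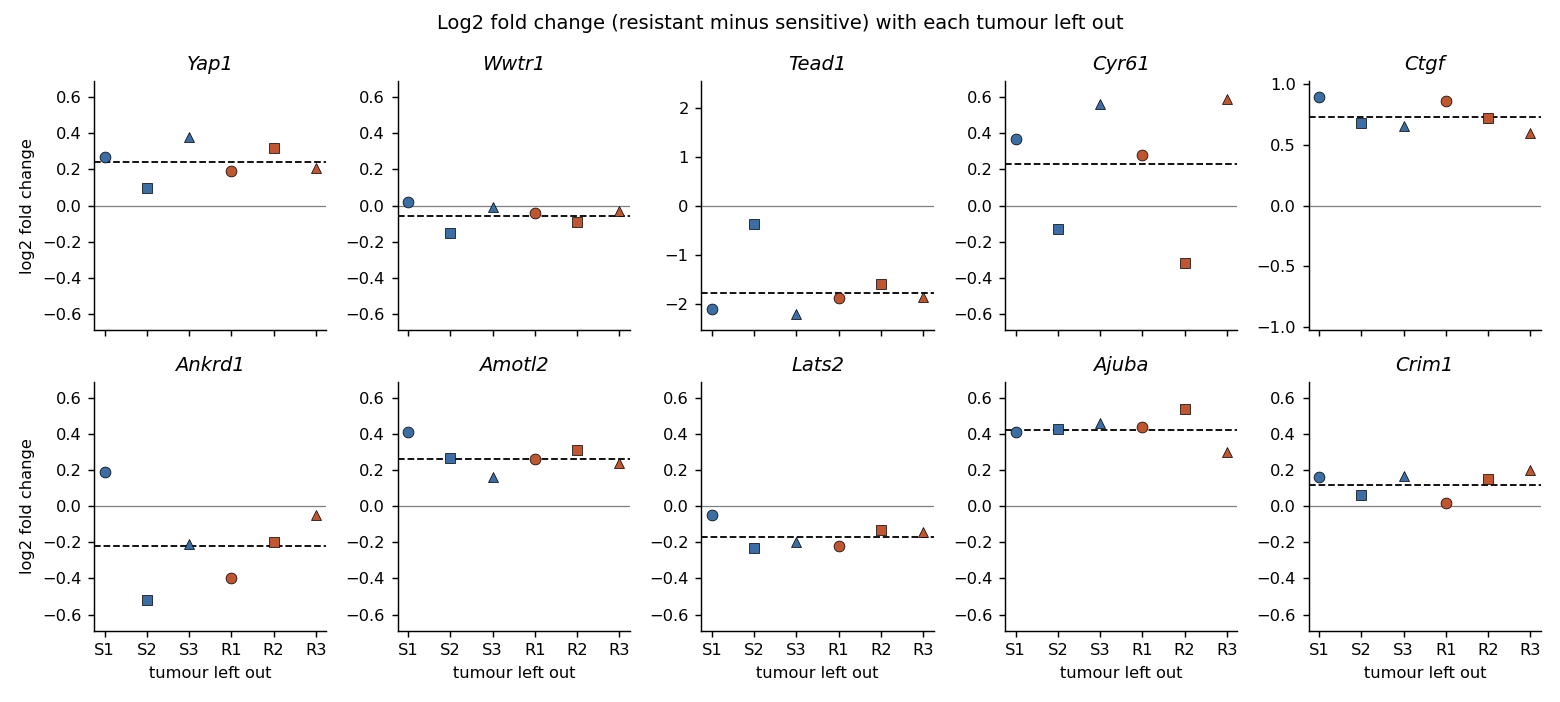
Log2 fold change (resistant minus sensitive) of each gene with each tumour left out (S1 to S3 sensitive, R1 to R3 resistant; vertical scales differ between panels), with the value over all 6 tumours as a dashed line. Ctgf, Ajuba, Amotl2, Yap1 and Crim1 stay above 0 each time, Tead1 and Lats2 below 0, and Cyr61, Ankrd1 and Wwtr1 cross 0.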

How the data were processed

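Libraries of 6 tumours were prepared with the VAHTS Universal V6 kit of Vazyme, per the labels' protocols. The authors deposited 2 tables of 20482 genes: whole-number read counts per gene with no normalization, and FPKM, which the authors scaled by gene length and total count. HISAT2, StringTie and edgeR are named in the submitters' processing notes, with versions, genome build, gene lengths and strand setting not given in the sources used here. Groups come from the sample titles. Per the series' design, the 3 tumours per group are biological replicates.

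The counts entered edgeR 4.0.16 under R 4.3.3 (filterByExpr, TMM scaling, quasi-likelihood F-test, no block, adjustment over 14392 genes). The SE is the log2 fold change over the root of F, and 95% intervals use the t distribution of the fit. For correlations the prior count of log2 CPM was 2. Coordinates come by identifier from GENCODE M21 (GRCm38), which held 20355 of the identifiers, and sequences from RefSeq (GRCm38.p6), matched by symbol or synonym. The fit was run on simulated counts with known fold changes, to check that it returned their size. That run held no outlying tumour such as sensitive tumour 2, so it does not cover that case.

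The genes and lists were chosen with earlier results of these data known. Named genes were all 10 genes, up to 4 of smallest p per pathway list, the most abundant of a marker list and the 3 most similar patterns. Stk3, Stk4, Lats1, Vgll4, Myof, Axl, Fos, Afp, Krt8, Krt19, Cdh1, Cldn4 and the overlapping genes were added after their values were seen. So were Gpc3, mt-Nd2, mt-Atp8, Cd3e, Cd2, Trac and the immediate early genes other than Fos and Jun. Alternatives were RLE and upper quartile scaling, no filter, DESeq2 1.42.0, limma-voom (limma 3.58.1), limma on log2(FPKM + 1) and log2(FPKM + 0.1) at a mean FPKM of at least 0.5, a replicate block, and leaving out each tumour.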

Additional observations from a re-analysis of the deposited data

How the results depend on the processing

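No gene of the group was called under any of the 14 alternatives. Over all genes, 117 were called by DESeq2 and 1 by limma on either FPKM scale, against 0 by edgeR's quasi-likelihood test. The median log2 fold change of the 10 genes was 0.17 and ran from 0.13 to 0.24 over the other settings and from -0.04 to 0.23 with single tumours left out. Signs differed for Wwtr1 (-0.06; 0.03 on both FPKM scales, from -0.15 to 0.02 with tumours left out), Cyr61 (0.23; from -0.32 to 0.59), Ankrd1 (-0.22; from -0.52 to 0.19), Tead2 (0.14; from -0.07 to 0.29) and Nov (1.01; from -0.08 to 1.47); the cause was not tested. Tead1 (-1.79) was -1.25 in limma-voom, -0.61 on log2(FPKM + 1), -1.06 on log2(FPKM + 0.1), where the pseudocount shrinks low values, and -1.17 with the replicate block. The difference in the log2 ratio of Wwtr1 to Yap1 ran from -0.43 to -0.24 with tumours left out. Same-numbered tumours did not deviate together (correlations of deviations of 0.0541, 0.31 and -0.163 for tumours 1 to 3), and only tumour pair 2 gave both partners their best match. With the replicate block 1120 genes had an unadjusted p under 0.05, against 1404 without it, none was called, and the median of the 10 genes was 0.13. The number of tumours limits the precision: the 95% interval runs from -0.36 to 0.25 for Wwtr1 and from -3.60 to 0.01 for Tead1 on the log2 scale.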
